A study of Homo sapiens with 28 samples.

Results

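TWIST1 knockout clone 3.2 of the colorectal cancer line MDST8 was compared with WT MDST8 cells by RNA-seq. Its members are the 3 libraries of this clone (replicates A, B and C, labelled TG3 with the replicate names 2A, 2B and 2C) and the 3 WT libraries. They were chosen by their labels and are 6 of the 28 samples in the series. MDST8 is an established human line of the mesenchymal CMS4 subtype, and the labels name no treatment of these cells other than the knockout. Clone 3.2 was grown from a single cell after electroporation of Cas9 protein with guide RNA against TWIST1, and the comparison served to find genes downstream of TWIST1. Another 12 libraries, 3 each from the single-cell-derived TWIST1 knockout clones 1.1, 2.2, 3.5 and 3.6, were used to ask which changes of clone 3.2 differed from those of the other clones. Clones 3.5 and 3.6 are also labelled TG3, clone 1.1 is labelled TG1 and clone 2.2 is labelled TG2. Clone 3.2 is 1 clone and WT is the line it was derived from, so loss of TWIST1 and other differences between this clone and the bulk of WT cells cannot be told apart. The labels do not say that replicates were separate cultures, so p-values measure only the spread between these libraries, which may be technical.

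TWIST1 is a basic helix-loop-helix transcription factor that pairs with E proteins such as TCF3, TCF4 and TCF12 and binds E-boxes in DNA. It drives mesoderm and neural crest development, and in carcinomas it is known as an inducer of the epithelial-mesenchymal transition (EMT), in which cells lose E-cadherin junctions and gain matrix contacts and motility. ID proteins hold E proteins in inactive dimers and thereby limit TWIST1.

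Total counts were 18502364 to 19382787 in the WT libraries and 18416590 to 22217009 in those of clone 3.2, and 2.4 to 3.05% of counts in WT and 2.80 to 4.02% in clone 3.2 came from mitochondrial genes. Most colon markers were absent or near 0 in this line. Of 20 intestinal epithelial identity genes, 13 had no count in any of the 6 libraries, among them CDX1, CDX2 and HNF4A, and 3, GATA6 and KLF5 among them, passed the filter on low counts. CDH1, which encodes E-cadherin, had no count in any of the 6 libraries. The summed level of 10 immune and endothelial markers stayed between 0.459 and 0.815 CPM in WT and between 0.289 and 0.828 CPM in clone 3.2, and PTPRC, CD3E and TYROBP were at 0 in all 6. CPM are counts scaled to the TMM-adjusted size of the library. In bulk RNA, fewer cells that express a gene and less of its RNA per cell cannot be told apart.

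TWIST1 mRNA was not lower in clone 3.2. The gene (ENSG00000122691.13, hg38 chromosome 7, 19020991 to 19117636, minus strand) stood at 45.2, 52.7 and 40.6 CPM in WT libraries A, B and C and at 51.03, 52.3 and 57.6 CPM in those of clone 3.2. The groups overlapped. The log2 fold change, clone 3.2 minus WT, was 0.22 ± 0.068 (SE, edgeR adjusted p = 0.00636), and an exact two-sided permutation test on log2 CPM gave p = 0.30, where 3 libraries against 3 cannot give less than 0.10. Counts per gene carry no sequence, so edits of a few bases in the coding exon cannot be seen in them, and the mRNA level gave no check of the label. The paper reports Sanger sequencing of the guide site and Western blots of TWIST1 in knockout cells, which were not examined here. The bHLH partners TCF3, TCF4 and TCF12, the inhibitors ID1, ID2 and ID3 and the EMT factors SNAI2, ZEB1 and ZEB2 were all tested, and none passed the threshold.

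Of 13706 genes tested, 1491 (10.9%) were called higher and 835 (6.09%) lower in clone 3.2. A call means a log2 fold change beyond 0.58 in either direction with a Benjamini-Hochberg adjusted p of edgeR's quasi-likelihood test below 0.05. The higher share of calls was 64.1%, and 74.3% with limma on log2(count + 1) without library size scaling, which gave 1763 genes higher and 611 lower. The median log2 fold change was -0.01 over all genes tested, 0.92 over those called higher and -0.77 over those called lower. Changes beyond 4-fold were found for 116 genes higher and 63 lower. Protein-coding genes made up 1236 of the higher and 694 of the lower calls, and lncRNAs 212 and 112. The shares 10.9 and 6.09% are the background against which each gene list below should be read. The lists were chosen with earlier results of these data known, so a share beyond this background is a description, not a test.

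**Figure D1:**
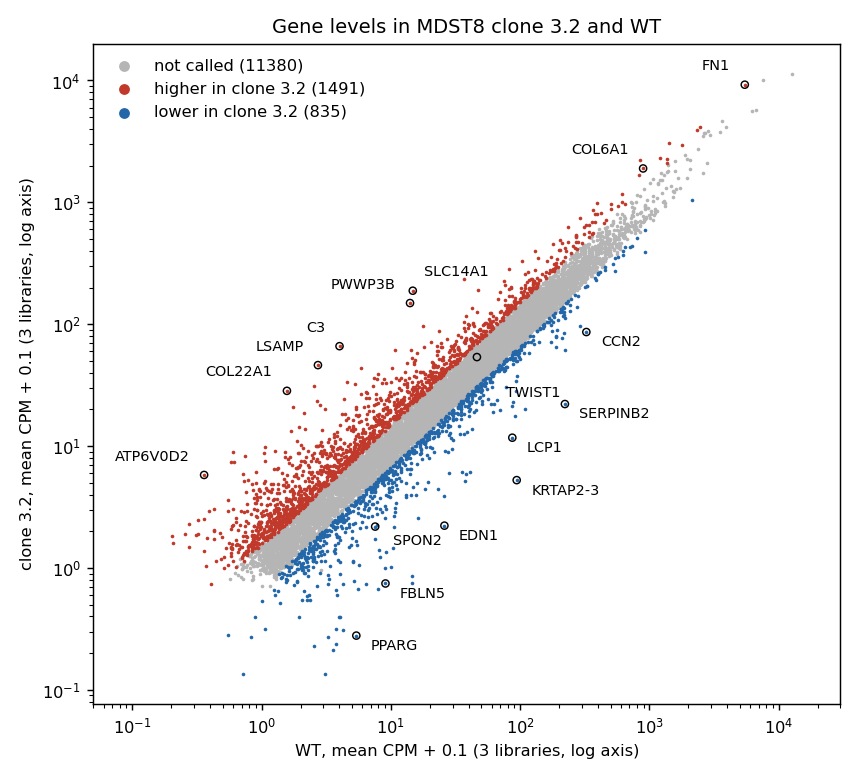
Mean CPM + 0.1 in WT (x axis) and in clone 3.2 (y axis), 3 libraries each, both axes logarithmic, 1 point for each of the 13706 genes tested. The 1491 genes called higher in clone 3.2 are red, the 835 called lower are blue, and TWIST1 lies among the grey genes that were not called.

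The protein-coding genes with the largest rises, among those with at least 5 CPM in the higher group and no overlap of the libraries, included those of a collagen, an integrin subunit, complement C3, a urea transporter and a proton pump subunit. ATP6V0D2, a subunit of the vacuolar proton pump best known from osteoclasts, stood at 0.267, 0.153 and 0.357 CPM in WT and at 5.91, 5.48 and 5.69 CPM in clone 3.2, a log2 fold change of 4.42 ± 0.27 (SE, edgeR adjusted p = 4.4e-16). COL22A1, a collagen of tissue junctions, was measured at 1.604, 1.63 and 1.17 CPM in WT and 28.4, 26.7 and 29.8 CPM in clone 3.2, a log2 fold change of 4.26 ± 0.13 (SE, edgeR adjusted p = 2.27e-24). The WT libraries of ATP6V0D2 held as few as 3 counts, so the size of its fold change is imprecise and depends on the prior count of the fit. For both genes all 3 clone libraries lay far above the WT libraries and close to each other. LSAMP, a cell-surface adhesion molecule of the immunoglobulin superfamily, went from 2.78, 2.14 and 2.96 CPM to 45.95, 45.8 and 46.4 CPM, a log2 fold change of 4.13 ± 0.10 (SE, edgeR adjusted p = 2.67e-27). C3, the central component of complement, had 4.12, 4.99 and 2.6 CPM in WT and 61.7, 60.99 and 75.1 CPM in clone 3.2, a log2 fold change of 4.08 ± 0.13 (SE, edgeR adjusted p = 6.45e-24). The WT libraries of C3 differed from each other by a larger factor than the clone libraries did, and the groups lay far apart. SLC14A1, a urea transporter, was at 17.4, 15.2 and 11.4 CPM in WT and 190.05, 183 and 192 CPM in clone 3.2, a log2 fold change of 3.68 ± 0.069 (SE, edgeR adjusted p = 5.9e-30). ITGA11, the alpha subunit of a collagen-binding integrin, was at 2.83, 2.29 and 2.24 CPM in WT and 31.6, 28.5 and 32.5 CPM in clone 3.2, a log2 fold change of 3.65 ± 0.11 (SE, edgeR adjusted p = 1.7e-24). The other rises by this rule were NACAD, LGALS9 (galectin-9), TMEM233, PRSS33 (a serine protease), PWWP3B, DAAM2 (a formin of WNT signalling), MUC15 (a membrane mucin), MMP10 (stromelysin-2) and MAF (a bZIP transcription factor), with log2 fold changes from 3.17 to 4.12.

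Among the falls, PPARG had the lowest fitted log2 fold change. This nuclear receptor, a master regulator of fat cells that is also active in colon epithelium, stood at 4.38, 6.21 and 5.303 CPM in WT and at 0.166, 0.225 and 0.145 CPM in clone 3.2, a log2 fold change of -4.83 ± 0.32 (SE, edgeR adjusted p = 5.64e-15). The clone libraries of PPARG held as few as 3 counts, so the size of this value is imprecise in the same way. PTPRN, a protein of dense-core secretory granules, went from 15.4, 13.7 and 14.02 CPM in WT to 0.442, 0.854 and 0.964 CPM, a log2 fold change of -4.21 ± 0.19 (SE, edgeR adjusted p = 2.14e-19). FBLN5, which organises elastic fibres, had 9.04, 8.96 and 8.92 CPM in WT and 0.497, 0.764 and 0.675 CPM in clone 3.2, a log2 fold change of -3.77 ± 0.26 (SE, edgeR adjusted p = 1.34e-14). For all of these genes no clone library reached 1 CPM, and the groups did not overlap. CXCR4, the receptor of the chemokine CXCL12, was at 8.29, 8.201 and 6.88 CPM in WT and 0.387, 0.494 and 0.82 CPM in clone 3.2, a log2 fold change of -3.75 ± 0.23 (SE, edgeR adjusted p = 5.56e-16). EDN1, the precursor of the vasoconstrictor endothelin-1, was at 26.7, 24.3 and 26.4 CPM in WT and 1.88, 1.89 and 2.604 CPM in clone 3.2, a log2 fold change of -3.6 ± 0.14 (SE, edgeR adjusted p = 2.35e-21). SERPINB2, an inhibitor of urokinase, went from 221, 211 and 233 CPM to 21.1, 23.9 and 21.1 CPM, a log2 fold change of -3.33 ± 0.072 (SE, edgeR adjusted p = 1.06e-28). The clone libraries of these 3 genes were all far below the WT libraries. LCP1, an actin-bundling protein of leukocytes that many carcinomas also express, had 86.4, 84.7 and 89.3 CPM in WT and 12.7, 11.8 and 10.4 CPM in clone 3.2, a log2 fold change of -2.9 ± 0.071 (SE, edgeR adjusted p = 3.75e-27). The keratin-associated genes KRTAP2-3 and KRTAP2-4 also fell, with log2 fold changes of -4.19 and -4.49, but they are near-identical copies among which reads may be split, so their separate values are uncertain. TNFAIP2, DNAH11, LRRC15, KRT34, CCBE1 and MGAM completed the rule, with log2 fold changes from -3.45 to -2.86. The bases that exons of DNAH11 share with the antisense gene CDCA7L cannot be assigned without strand.

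**Figure D2:**
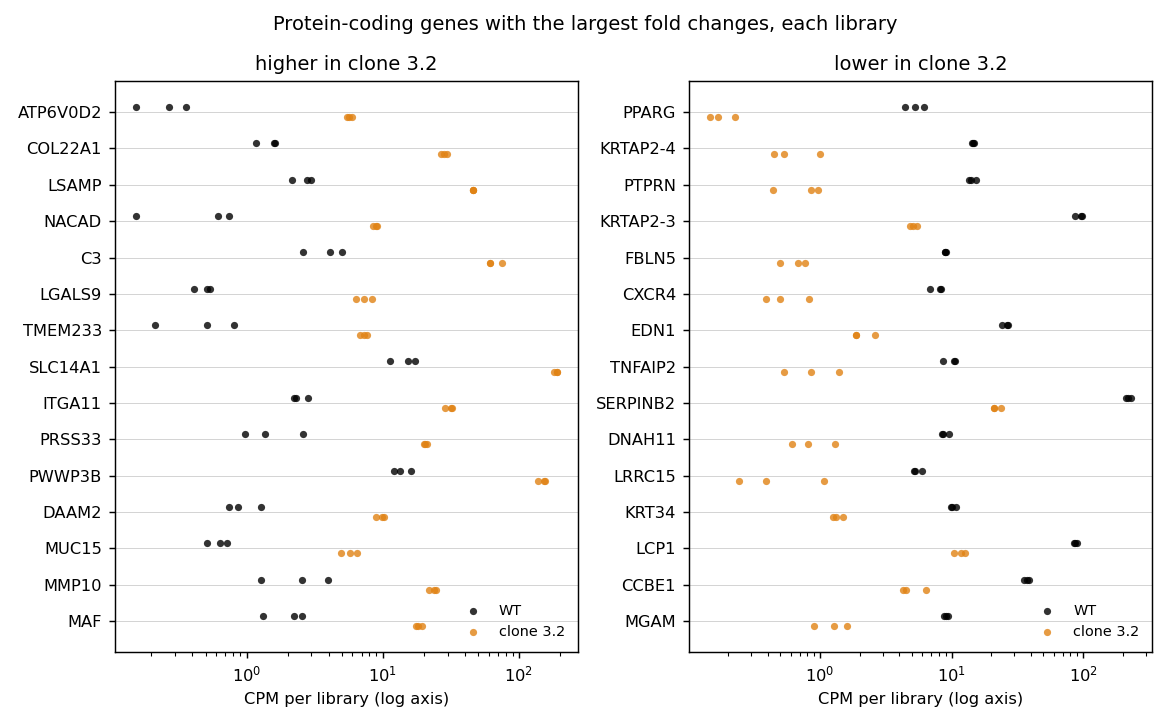
CPM in each library (logarithmic axis) for the 15 protein-coding genes with the largest rises (left) and the 15 with the largest falls (right). Black points are the 3 WT libraries and orange points the 3 libraries of clone 3.2, and for every gene shown they do not overlap.

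Among EMT transcription factors and their epithelial antagonists, 4 of 14 tested members were lower and 0 higher, with a median log2 fold change of -0.03. PRRX1, a homeobox factor of mesenchyme, was at 28.4, 29.9 and 27.3 CPM in WT and 12.4, 13.7 and 12.3 CPM in clone 3.2, a log2 fold change of -1.15 ± 0.078 (SE, edgeR adjusted p = 8e-15). FOXC2, a forkhead factor of mesenchyme and lymphatic vessels, went from 9.14, 9.88 and 8.16 CPM to 4.47, 2.97 and 1.45 CPM, a log2 fold change of -1.63 ± 0.20 (SE, edgeR adjusted p = 1.84e-08). The clone libraries of FOXC2 spread widely, and all lay below the WT libraries. KLF4 and GRHL1, which are epithelial factors, were lower as well, with log2 fold changes of -1.02 and -0.8. The libraries of GRHL1 overlapped between the groups, and its call was lost without WT replicate B or without clone 3.2 replicate C. The epithelial factors GRHL2, OVOL1, OVOL2, ESRP1, ESRP2 and ELF3 did not pass the filter on low counts.

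Epithelial junction genes moved in different directions. Of 12 tested members of a list of 27, 3 were higher and 1 lower, with a median log2 fold change of 0.28. The desmosomal linker DSP (desmoplakin) stood at 3.101, 3.52 and 4.54 CPM in WT and 11.3, 11.96 and 12.8 CPM in clone 3.2, a log2 fold change of 1.69 ± 0.12 (SE, edgeR adjusted p = 9.61e-15). Its relative PPL (periplakin) was at 1.604, 1.53 and 1.43 CPM in WT and 5.69, 6.88 and 9.11 CPM in clone 3.2, a log2 fold change of 2.25 ± 0.18 (SE, edgeR adjusted p = 6.84e-13), and the armadillo protein PKP3 (plakophilin 3) rose by a log2 fold change of 1.0. The desmosomal cadherin DSG2 (desmoglein 2), in contrast, was at 19.9, 19.4 and 18.9 CPM in WT and 5.14, 4.58 and 5.16 CPM in clone 3.2, a log2 fold change of -1.97 ± 0.10 (SE, edgeR adjusted p = 1.03e-17). All clone libraries of these 4 genes lay on 1 side of the WT libraries. EPCAM, the claudins on the list, KRT19 and KRT20 stayed under the filter.

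The mesenchymal markers were also split, with 4 of 18 tested members higher, 4 lower and a median log2 fold change of 0.05. With limma on log2(RPM + 1) 2 were higher, since LOX and TPM2 were then under the threshold of size. The genes that fell code in part for contractile proteins. MYL9, the smooth muscle type of myosin regulatory light chain, went from 24.5, 21.95 and 22.5 CPM in WT to 4.805, 4.72 and 3.47 CPM in clone 3.2, a log2 fold change of -2.41 ± 0.10 (SE, edgeR adjusted p = 4.04e-20). TAGLN (transgelin), an actin-binding protein, was at 10.1, 9.68 and 11.6 CPM and 2.65, 2.52 and 2.604 CPM, a log2 fold change of -2.01 ± 0.15 (SE, edgeR adjusted p = 4.91e-14), and its exons overlap those of the antisense gene PCSK7. The atypical cadherin CDH13 and the receptor kinase AXL were lower too, with log2 fold changes of -2.03 and -0.75. The rises were those of FN1 (fibronectin), the cadherin CDH6, the collagen cross-linking enzyme LOX and the tropomyosin TPM2. FN1 was measured at 5082, 5513 and 5782 CPM in WT and 9178, 8753 and 9769.6 CPM in clone 3.2, a log2 fold change of 0.76 ± 0.050 (SE, edgeR adjusted p = 4.55e-15). The call of TPM2 was lost without WT replicate A or without clone 3.2 replicate B, with log2 fold changes of 0.58 and 0.57. VIM, CDH2, ACTA2, CALD1 and THY1 did not pass the threshold. Of fibroblast markers, DCN and PDPN were higher and FAP lower among 6 tested, and the summed level of the 10 genes was 798.9 to 821.2 CPM in WT and 1015 to 1093 CPM in clone 3.2. The call of PDPN was lost without WT replicate C (0.58) or clone 3.2 replicate C (0.56). CXCL12 had no count, and COL1A2, COL3A1 and PDGFRA were below the filter. Of mesothelial markers, CALB2 and LRRN4 were lower among 3 tested, and the 10 genes summed to 43.6 to 47.9 CPM in WT and 24.8 to 28.8 CPM in clone 3.2, with ITLN1 and KRT5 at 0. LRRN4 was not called without WT replicate B, with a log2 fold change of -0.42. The part of such markers in the matrix results below was not tested.

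Matrix genes changed often, mostly upward among collagens. Of 25 tested collagens and laminins, 8 were higher and 1 lower, 32% and 4.0% against the background of 10.9 and 6.09%, with a median log2 fold change of 0.50. COL6A1, a chain of the microfibrillar collagen VI, was at 889.84, 918 and 869 CPM in WT and 1925, 1819.5 and 1947 CPM in clone 3.2, a log2 fold change of 1.09 ± 0.036 (SE, edgeR adjusted p = 2.61e-23). Its partner chain COL6A3 rose with a log2 fold change of 0.91, and the chain COL6A2 was called as well. Without WT replicate B or without clone 3.2 replicate B, 2 members were lower. COL4A1, COL8A1, COL9A3, COL18A1 and LAMA1 were the other rises, and LAMB3, a chain of the epithelial laminin-332, was the fall, from 20.5, 22.2 and 21.6 CPM to 9.997, 7.19 and 9.21 CPM with a log2 fold change of -1.29 ± 0.11 (SE, edgeR adjusted p = 1.81e-12). The exons of COL9A3 and COL18A1 overlap those of antisense genes.

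Matricellular and matrix glycoproteins were called in both directions, with 7 of 22 tested members higher, 9 lower and a median log2 fold change of 0.04. SPON2 (spondin 2, ENSG00000159674.12), a secreted protein that binds integrins and pathogens, stood at 6.26, 8.81 and 7.29 CPM in WT and at 1.99, 2.38 and 1.88 CPM in clone 3.2, a log2 fold change of -1.83 ± 0.20 (SE, edgeR adjusted p = 1.53e-09). CCN2 (connective tissue growth factor) was at 322, 319 and 334 CPM in WT and 86.7, 89.7 and 82.1 CPM in clone 3.2, a log2 fold change of -1.91 ± 0.044 (SE, edgeR adjusted p = 4.93e-28). CCN1 was at 218, 227 and 224 CPM and 62.2, 61.6 and 59.5 CPM, a log2 fold change of -1.87 ± 0.045 (SE, edgeR adjusted p = 2.67e-27). The WT and clone libraries of these 3 genes were separated by gaps wider than the spread within either group. The related CCN3 went the other way, with a log2 fold change of 1.11. The proteoglycan VCAN (versican) rose from 278, 298 and 297 CPM to 709.9, 727 and 797 CPM, a log2 fold change of 1.36 ± 0.057 (SE, edgeR adjusted p = 1.43e-20), and TNC (tenascin C) and the decorin gene DCN rose with log2 fold changes of 1.01 and 2.15. TGFBI, THBS3 and FBN2 were the other genes called higher. FBLN5, the thrombospondin THBS1, SPP1 (osteopontin), F3 (tissue factor) and the hyaluronan synthases HAS2 and HAS3 completed the falls.

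Of 22 matrix proteases and inhibitors tested, 5 were higher and 3 lower, with a median log2 fold change of 0.40. The collagenase MMP1 was at 119, 113 and 97.03 CPM in WT and 264, 246 and 263 CPM in clone 3.2, a log2 fold change of 1.23 ± 0.061 (SE, edgeR adjusted p = 1.68e-18). The gelatinase MMP2 was at 1234, 1223 and 1179.7 CPM and 2294, 2278 and 2402 CPM, a log2 fold change of 0.94 ± 0.035 (SE, edgeR adjusted p = 5.6e-22). MMP10, MMP11 and MMP16 were also higher, so every protease gene called higher was a matrix metalloproteinase. The falls were the ADAMTS family proteases ADAMTS1 and ADAMTS6 and the protease inhibitor SERPINE2, with log2 fold changes of -1.69, -2.25 and -1.43.

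Integrin subunits rose together with several of these ligands. Of 29 integrin and focal adhesion genes tested, 10 were higher and 3 lower, with a median log2 fold change of 0.32. ITGA2, the alpha subunit of a collagen receptor, was at 204, 210.18 and 199.77 CPM in WT and 501, 470.1 and 507 CPM in clone 3.2, a log2 fold change of 1.27 ± 0.038 (SE, edgeR adjusted p = 1.22e-24). ITGA1 and ITGA11, which like ITGA2 form collagen receptors with ITGB1, rose with log2 fold changes of 1.28 and 3.65, although ITGA1 shares exon bases with PELO on the same strand. ITGB3, the beta subunit of the vitronectin receptor, rose with a log2 fold change of 1.3. ITGA3, ITGA7, ITGA10, ITGAV, TNS2 and TNS3 were the other rises. The falls were those of the linker SYNE1, the tensin TNS1 and the kindlin FERMT2. SYNE1, which ties the nucleus to the cytoskeleton, was at 207, 217 and 234 CPM in WT and 85, 83.6 and 86.98 CPM in clone 3.2, a log2 fold change of -1.36 ± 0.047 (SE, edgeR adjusted p = 6.12e-23). TNS1, in contrast to TNS2 and TNS3, was at 8.72, 11.1 and 8.31 CPM and 4.09, 2.83 and 4.44 CPM, a log2 fold change of -1.31 ± 0.17 (SE, edgeR adjusted p = 2.16e-08).

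Receptors for lysophospholipids, thrombin and chemokines, which steer cell movement, were called in 8 of 12 tested cases, 4 in each direction. LPAR1, a receptor of lysophosphatidic acid, stood at 35.5, 36.1 and 37.98 CPM in WT and 12.2, 13.1 and 12.2 CPM in clone 3.2, a log2 fold change of -1.54 ± 0.075 (SE, edgeR adjusted p = 1.14e-18). S1PR1, a receptor of sphingosine 1-phosphate, was at 35.5, 35.5 and 35.3 CPM in WT and 6.63, 5.798 and 5.496 CPM in clone 3.2, a log2 fold change of -2.57 ± 0.10 (SE, edgeR adjusted p = 1.74e-21), and S1PR3 was lower with a log2 fold change of -1.35. The protease-activated receptor F2RL1 was at 85.1, 81.2 and 78.1 CPM in WT and 282, 285 and 285 CPM in clone 3.2, a log2 fold change of 1.8 ± 0.044 (SE, edgeR adjusted p = 3.75e-27). The thrombin receptor F2R and the lysophosphatidic acid receptors LPAR4 and LPAR6 were higher as well, with log2 fold changes of 0.93, 1.21 and 0.83.

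Growth factors and receptor tyrosine kinases held 11 lower members of 31 tested (35.5%, background 6.09%) and 4 higher (12.9%, background 10.9%), with a median log2 fold change of 0.06. Most of the falls were ligands. FGF1 went from 3.903, 4.08 and 3.77 CPM to 0.773, 0.809 and 0.771 CPM, a log2 fold change of -2.31 ± 0.22 (SE, edgeR adjusted p = 6.56e-11). FGF2, which like FGF1 is released without a signal peptide, was at 8.502, 10.3 and 9.74 CPM in WT and 4.53, 4.54 and 3.905 CPM in clone 3.2, a log2 fold change of -1.14 ± 0.15 (SE, edgeR adjusted p = 2.63e-08). IGFBP3, a carrier of insulin-like growth factors, was at 10.6, 11.1 and 10.9 CPM and 2.71, 3.28 and 4.002 CPM, a log2 fold change of -1.7 ± 0.16 (SE, edgeR adjusted p = 2.41e-11). The WT and clone libraries of the 3 genes did not overlap. The ligands EGF, VEGFA, NRG1, EREG, KITLG and PDGFA and the receptors FGFR4 and AXL were the other falls. NTRK3, the receptor of neurotrophin 3, was the receptor that rose, from 5.83, 5.501 and 6.02 CPM to 15.3, 15.1 and 17.8 CPM with a log2 fold change of 1.47 ± 0.10 (SE, edgeR adjusted p = 1.15e-14), next to the ligands NRG2 and BTC and the binding protein IGFBP7, whose exons overlap those of POLR2B.

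The list of targets of YAP and TEAD, the effectors of the Hippo pathway, also holds these effectors and the pathway member LATS1, so not all its members are targets. Of 30 tested members, 7 were lower (23.3%) and 3 higher (10.0%), with a median log2 fold change of -0.15. With limma on log2(count + 1) 5 were higher. ANKRD1, with as few as 5 counts in a clone library, had the lowest fitted value, from 3.58, 4.43 and 3.72 CPM in WT to 0.387, 0.27 and 0.241 CPM in clone 3.2, a log2 fold change of -3.7 ± 0.34 (SE, edgeR adjusted p = 2.1e-11), and CCN1, CCN2, IGFBP3, DLC1, AXL and F3 were the others. The 3 genes called higher were WWTR1, which encodes the co-activator TAZ, the angiomotin AMOTL1 and TGFB2. YAP1 itself was not called.

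WNT ligands, targets and feedback genes were higher in 10 of 30 tested cases (33.3%) and lower in 3 (10.0%), with a median log2 fold change of 0.38. The feedback inhibitor NKD1 stood at 111, 102 and 99.3 CPM in WT and at 349.95, 295 and 341 CPM in clone 3.2, a log2 fold change of 1.66 ± 0.053 (SE, edgeR adjusted p = 6.5e-24). NKD2 and the target AXIN2 were also called higher. The co-receptor LRP5 was at 6.26, 6.52 and 6.93 CPM in WT and 19.99, 20.7 and 22.7 CPM in clone 3.2, a log2 fold change of 1.68 ± 0.090 (SE, edgeR adjusted p = 1.23e-17). The ligand WNT6 was at 0.16, 0.051 and 0.102 CPM in WT and 2.04, 1.53 and 1.64 CPM in clone 3.2, and the WNT5A receptor ROR1 at 0.214, 0.102 and 0.204 CPM and 1.33, 1.798 and 1.01 CPM. The WT libraries held as few as 1 count of WNT6 and 2 counts of ROR1, so no fold change is given for them. WNT5A, FZD3, TCF7L2 and BAMBI were the remaining rises, and the receptor LGR4 and the ligand WNT10B were lower, with log2 fold changes of -0.77 and -0.67. The secreted antagonist DKK1 fell from 289, 283 and 293 CPM to 100.19, 100.37 and 87.4 CPM, a log2 fold change of -1.59 ± 0.049 (SE, edgeR adjusted p = 2.14e-24).

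In the TGF-beta and BMP pathway 12 of 42 tested members were higher (28.6%) and 4 lower (9.52%), with a median log2 fold change of 0.33. The ligand TGFB2 was at 11.98, 10.1 and 9.33 CPM in WT and 25.96, 28.1 and 25.8 CPM in clone 3.2, a log2 fold change of 1.35 ± 0.085 (SE, edgeR adjusted p = 1.03e-15). The receptor TGFBR2, the effector SMAD3 and the feedback gene PMEPA1 were called higher too. BMP2 fell from 73.3, 71.4 and 65.3 CPM to 20.7, 20.7 and 17.6 CPM, a log2 fold change of -1.83 ± 0.063 (SE, edgeR adjusted p = 5.98e-23), while BMP6 was higher with a log2 fold change of 2.01, its exons overlapping those of TXNDC5, and BMP4 was called higher. The activin antagonists FST and FSTL3 and the stress cytokine GDF15 were lower, with log2 fold changes of -1.7, -0.73 and -1.22. In the Notch pathway, 5 of 16 tested members were higher and 2 lower, with a median log2 fold change of 0.30. DTX1, a Notch target and regulator, was at 11.2, 13.1 and 11.1 CPM in WT and 26.7, 27.5 and 32.1 CPM in clone 3.2, a log2 fold change of 1.28 ± 0.092 (SE, edgeR adjusted p = 3.82e-14), and the ligands DLL1, DLL4 and JAG1 and the co-activator MAML2 were called as well. DLL4 was not called without WT replicate A or clone 3.2 replicate C, with log2 fold changes of 0.83 and 0.56. Both falls in this list, DLL3 and LFNG, lost their call without WT replicate A, which left 0, and 1 was left without WT replicate B, clone 3.2 replicate B or clone 3.2 replicate C.

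The list of MAPK feedback genes holds inhibitors of ERK signalling and also transcription factors and ephrin receptors, so not all its members damp ERK. Of 24 tested members, 9 were higher (37.5%) and 0 lower, with a median log2 fold change of 0.52. EGR1, an immediate early transcription factor, was at 17.2, 17.6 and 10.5 CPM in WT and 59.9, 46.3 and 34.2 CPM in clone 3.2, a log2 fold change of 1.63 ± 0.24 (SE, edgeR adjusted p = 5.46e-07). EGR3, of the same family, and the ETS factor ETV1 rose with log2 fold changes of 1.08 and 0.84. PHLDA1 was at 834, 805 and 829 CPM in WT and 1639, 1662 and 1693 CPM in clone 3.2, a log2 fold change of 1.02 ± 0.032 (SE, edgeR adjusted p = 5.06e-24). The phosphatase DUSP6, which removes phosphate from ERK, the ephrin receptors EPHA2 and EPHA4, JUNB and SPRED3 made up the rest.

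NF-kB feedback genes, chemokines and cytokines were higher in 13 of 29 tested cases (44.8%) and lower in 1 (3.45%), with a median log2 fold change of 0.47. TNFAIP3 (A20), a ubiquitin-editing inhibitor of NF-kB, was at 20.8, 25.5 and 22.03 CPM in WT and 70.2, 62.4 and 66.2 CPM in clone 3.2, a log2 fold change of 1.54 ± 0.066 (SE, edgeR adjusted p = 2.57e-20). MIR3142HG, the host transcript of miR-146a, was at 1.497, 1.83 and 2.04 CPM in WT and 10.9, 11.9 and 9.84 CPM in clone 3.2, a log2 fold change of 2.6 ± 0.15 (SE, edgeR adjusted p = 1.23e-16). The adaptor TRAF1 and the anti-apoptotic BIRC3 rose with log2 fold changes of 1.81 and 1.41, and the inhibitors NFKBIA and TNIP1 and the subunit RELB were called higher. Of secreted factors, CCL2, CXCL1, IL1A, IL1B and IL32 were called higher. TNFAIP2, the 1 member called lower, had the log2 fold change of -3.45 given above. IL6, TNF and CXCL2 were below the filter. TNFAIP3, MIR3142HG and TNFRSF21, which was also called higher, are on the study's upward list described below. The share of rises in this list is therefore not independent of the study's choice.

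Interferon-stimulated and antigen presentation genes were higher in 13 of 41 tested cases (31.7%) and lower in 2 (4.88%), with a median log2 fold change of 0.32. The sensor IFIH1 (MDA5) went from 4.01, 2.802 and 3.42 CPM to 9.39, 9.12 and 9.69 CPM, a log2 fold change of 1.46 ± 0.13 (SE, edgeR adjusted p = 3.2e-12). IFI44L and BST2 (tetherin), which holds budding virus at the membrane, rose with log2 fold changes of 1.15 and 1.05. IFIT2, which binds viral RNA, rose as well with a log2 fold change of 1.18, its exons overlapping those of LIPA. B2M, the light chain of MHC class I, and the class I gene HLA-B were also called higher, where reads of similar class I genes may be split. CD274, which encodes the checkpoint ligand PD-L1, was at 10.7, 7.44 and 11.98 CPM and 5.63, 5.26 and 3.62 CPM, a log2 fold change of -1.06 ± 0.17 (SE, edgeR adjusted p = 1.31e-06). OAS2 was the other member called lower, with a log2 fold change of -0.88.

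**Figure D3:**
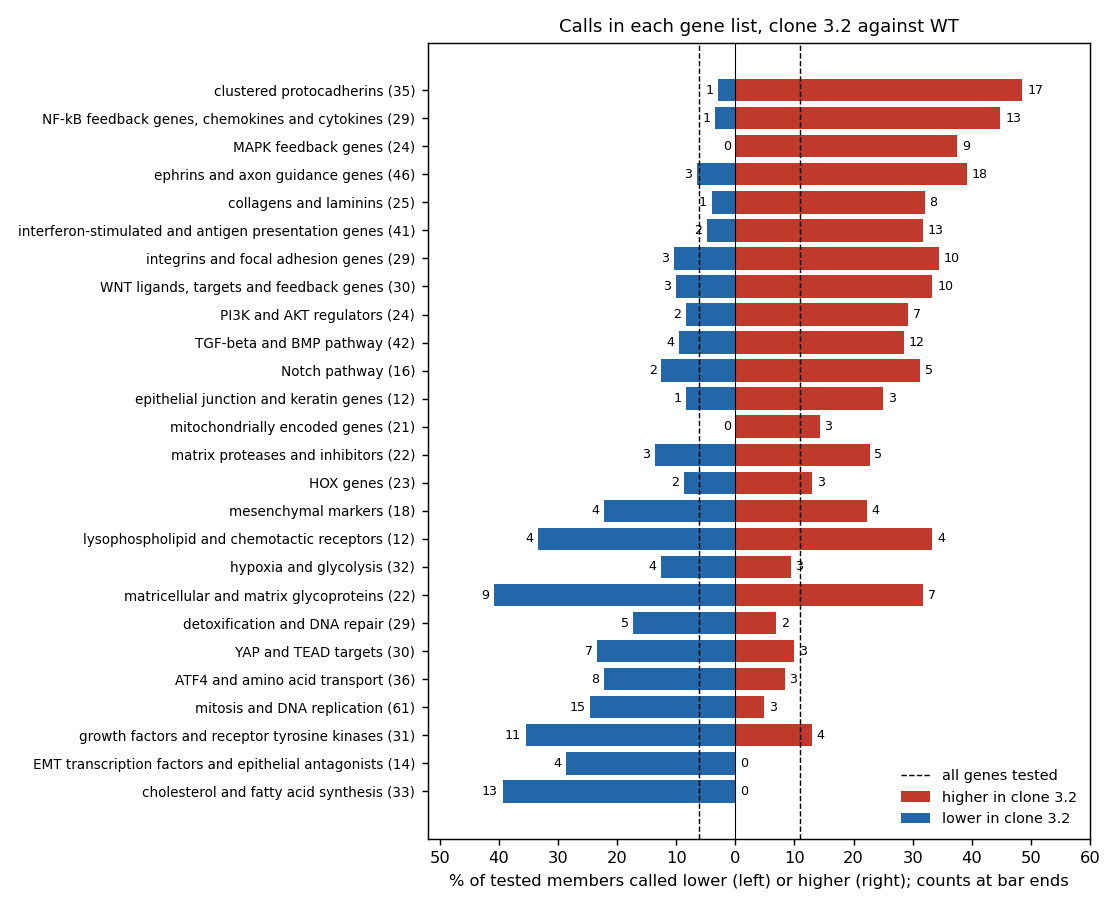
Share of tested members of each gene list called higher (right, red) or lower (left, blue) in clone 3.2 than in WT, with the numbers of genes at the bar ends and the number tested in brackets. Dashed lines mark the shares over all genes tested, 10.9% higher and 6.09% lower, and lists with fewer than 10 tested members, the lists chosen by the study and 1 list that is not reported are left out.

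Ephrins and axon guidance genes were higher in 18 of 46 tested cases (39.1%) and lower in 3 (6.52%), with a median log2 fold change of 0.41. SEMA6B, a membrane-bound semaphorin, was at 12.5, 16.7 and 13.9 CPM in WT and 53.7, 48.99 and 56.4 CPM in clone 3.2, a log2 fold change of 1.88 ± 0.083 (SE, edgeR adjusted p = 6.38e-20). SEMA6A, of the same class, was at 4.81, 4.43 and 4.79 CPM in WT and 14.5, 14.5 and 13.6 CPM in clone 3.2, a log2 fold change of 1.6 ± 0.11 (SE, edgeR adjusted p = 1.34e-14). Neither gene's libraries overlapped between the groups. UNC5B, a receptor of netrins, rose with a log2 fold change of 1.29, and the secreted SEMA3A and its receptors NRP1 and NRP2 were called higher. The ephrin receptor EPHB1 fell from 27.8, 26.7 and 28.4 CPM to 7.29, 8.49 and 10.8 CPM, a log2 fold change of -1.63 ± 0.092 (SE, edgeR adjusted p = 5.37e-17), and SEMA3D and EFNA5 were the other falls, with log2 fold changes of -1.02 and -0.96.

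Clustered protocadherins, adhesion molecules of neural cells encoded in a row on the long arm of chromosome 5, had the highest share of rises among the lists not chosen by the study. Of 53 genes in the annotation 35 were tested, 17 were higher (48.6%) and 1 lower (2.86%), with a median log2 fold change of 0.58. PCDHB9 was at 12.4, 11.7 and 10.1 CPM in WT and 30.3, 27.9 and 31.7 CPM in clone 3.2, a log2 fold change of 1.4 ± 0.080 (SE, edgeR adjusted p = 7.45e-17), and PCDHB12 at 1.34, 1.53 and 1.02 CPM and 3.37, 3.28 and 3.57 CPM, a log2 fold change of 1.39 ± 0.24 (SE, edgeR adjusted p = 6e-06). The groups did not overlap for either gene. PCDHB6 and PCDHGA10 rose with log2 fold changes of 1.49 and 1.85. PCDHGB2, which fell with a log2 fold change of -0.76, was the only member called lower, and 2 were lower without WT replicate A or without clone 3.2 replicate C. Members of the alpha and gamma clusters share their last exons, so reads there cannot be given to 1 gene and the values of single members are uncertain. Rises on this arm were also found outside the clusters. Of the 50 tested genes from IRF1-AS1 to HSPA9 (hg38 chromosome 5, 132410636 to 138575675), 17 were higher and 0 lower. Their median log2 fold change was 0.38. The highest median of any 50 neighbouring tested genes, 0.60, was that from SPATA24 to PCDHGA2 (139396563 to 141512975). That window includes protocadherins, and 24 of its genes were higher and 0 lower. Medians of clones 1.1, 2.2, 3.5 and 3.6 against WT there were 0.56, 0.43, 0.59 and 0.57. Both windows were picked for their high medians.

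In the lists of cell cycle, cholesterol and amino acid genes, more members were called lower than higher, and most were not called. Of 61 genes of mitosis and DNA replication, all tested, 15 were lower (24.6%) and 3 higher (4.92%), and the median log2 fold change was -0.43. The number called lower was 8 with limma on log2(count + 1). CDC20, an activator of the anaphase-promoting complex, was at 174, 186 and 174 CPM in WT and 100.41, 107 and 104 CPM in clone 3.2, a log2 fold change of -0.78 ± 0.043 (SE, edgeR adjusted p = 4e-17). MYBL2, a transcription factor of the G2 phase, was at 104, 109 and 108 CPM and 55.8, 59.9 and 58.1 CPM, a log2 fold change of -0.89 ± 0.053 (SE, edgeR adjusted p = 2.85e-16). The transcription factor E2F2 and the thymidylate synthase TYMS fell with log2 fold changes of -0.89 and -0.82. E2F1, E2F8, the replication factors CDC6, CDT1, GINS2, MCM5 and MCM6, AURKB, CDC25A, CENPM and DBF4B made up the rest. CDC20, CENPM and DBF4B are on the study's downward list, so the share of falls is not independent of that choice. The 3 rises were all inhibitors of cyclin-dependent kinases: CDKN1C had 12.9, 16.5 and 10.9 CPM in WT and 25.5, 25.7 and 32.5 CPM in clone 3.2, a log2 fold change of 1.05 ± 0.10 (SE, edgeR adjusted p = 1.16e-10), and CDKN2A and CDKN2B rose with log2 fold changes of 0.64 and 0.64 that lost their call without clone 3.2 replicate A.

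Cholesterol and fatty acid synthesis genes were lower in 13 of 33 tested cases (39.4%) and higher in 0, with a median log2 fold change of -0.43, and 7 were lower with limma on log2(count + 1). INSIG1, a sterol sensor of the endoplasmic reticulum, stood at 552, 552 and 531 CPM in WT and at 274, 274 and 268 CPM in clone 3.2, a log2 fold change of -1.0 ± 0.033 (SE, edgeR adjusted p = 1.43e-23). EBP, a sterol isomerase, was at 30, 32.04 and 33.4 CPM in WT and 16.8, 17.4 and 15.9 CPM in clone 3.2, a log2 fold change of -0.93 ± 0.082 (SE, edgeR adjusted p = 7.11e-12). MVD, which decarboxylates mevalonate diphosphate, was at 125, 139.68 and 118 CPM and 67, 72.8 and 66.4 CPM, a log2 fold change of -0.89 ± 0.055 (SE, edgeR adjusted p = 6.32e-16), and CYP51A1, whose exons overlap those of AKAP9, had a log2 fold change of -0.9. The other calls included HMGCS1, MVK and IDI1 of the mevalonate pathway and FDFT1, MSMO1, NSDHL and DHCR7 of sterol synthesis.

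Targets of ATF4 and amino acid transporters were lower in 8 of 36 tested cases (22.2%) and higher in 3 (8.33%), with a median log2 fold change of -0.19, and 4 were lower with limma on log2(count + 1). SLC7A5, the large neutral amino acid transporter LAT1, was at 18.02, 20.7 and 15.9 CPM in WT and 5.58, 3.78 and 3.57 CPM in clone 3.2, a log2 fold change of -2.09 ± 0.15 (SE, edgeR adjusted p = 3.92e-14). The serine synthesis enzyme PSAT1, the serine transporter SFXN2 and the cationic amino acid transporter SLC7A1 fell with log2 fold changes of -0.73, -0.77 and -0.65, and MTHFD2, SLC7A11, STC2 and TRIB3 were called lower too. The glycine transporter SLC6A9, VLDLR and DDIT4 (REDD1, an inhibitor of mTORC1) were higher, with log2 fold changes of 1.66, 1.35 and 0.93. In the list of PI3K and AKT regulators 7 of 24 tested members were higher and 2 lower. The median log2 fold change was 0.13. This list was built with PIK3IP1, KCNAB2, PPM1N and PDCD4, all on the study's upward list. Its share of rises is therefore not independent of that choice. PIK3IP1, an inhibitor of PI3K, was at 7.54, 6.32 and 6.02 CPM in WT and 21.8, 24.6 and 27.1 CPM in clone 3.2, a log2 fold change of 1.89 ± 0.10 (SE, edgeR adjusted p = 2.73e-18). KCNAB2, a potassium channel subunit on this list whose exons overlap those of NPHP4, was at 1.76, 1.78 and 1.22 CPM and 12.8, 12.6 and 14.4 CPM, a log2 fold change of 3.05 ± 0.15 (SE, edgeR adjusted p = 3.3e-18). PPM1N and PDCD4, a translation inhibitor, rose with log2 fold changes of 1.06 and 0.98, and FOXO1, PIK3R3 and PIK3CD were called higher. PPM1N shares exon bases with RTN2. The insulin receptor substrate IRS2 and the kinase SGK1 were the falls, with log2 fold changes of -0.98 and -0.94.

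The study chose 27 genes as direct TWIST1 targets by combining RNA-seq of this series with TWIST1 ChIP-seq. A supplementary figure of the paper shows clone 3.6 against WT, and whether clone 3.2 entered the choice is not given. The WT libraries are shared with that choice, so the direction of these genes here is not taken as independent evidence. The same holds where they stand in lists above, such as SYNE1 and TNS1 among integrin and focal adhesion genes. SLC7A5, SLC7A1 and SFXN2 stand in the list of ATF4 targets and amino acid transporters. TNFAIP3, MIR3142HG and TNFRSF21 stand in the NF-kB list, and CDC20, CENPM and DBF4B in that of mitosis and DNA replication. SPON2 and F3 stand among matricellular genes, F3 also in the YAP and TEAD list, LPAR1 among receptors and PCDHGC3 among protocadherins. All 13 genes of the upward list were called higher, and 13 of the 14 genes of the downward list were called lower, ASF1B being the exception, with median log2 fold changes of 1.11 and -0.78. The DNA repair enzyme MGMT, on the upward list, was at 4.38, 3.67 and 3.77 CPM in WT and 9.55, 10.5 and 9.16 CPM in clone 3.2, a log2 fold change of 1.31 ± 0.12 (SE, edgeR adjusted p = 1.5e-11).

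Clone 3.2 was next compared directly with each of the other 4 clones, to find where it differed from them. It was nearest to clone 1.1, from which 447 genes (3.26%) differed, 215 higher and 232 lower in clone 3.2. From clone 3.5 1208 genes (8.81%) differed, from clone 3.6 1224 (8.93%) and from clone 2.2 1833 (13.4%). Clone 3.2 thus differed in more genes from clones 3.5 and 3.6, which share its label TG3, than from clone 1.1, labelled TG1. Genes that passed against WT and, in the same direction, against each of the 4 clones numbered 11 higher (0.0803%) and 29 lower (0.212%). All 5 comparisons use the same clone 3.2 libraries. Of the 40 genes, 38 were protein-coding and 19 had less than 5 CPM in both WT and clone 3.2.

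Adhesion molecules were among those higher or lower in clone 3.2 than in every other group. CDH6, a cadherin of kidney and neural crest, had 121, 121 and 124 CPM in WT and 236, 235 and 228 CPM in clone 3.2, a log2 fold change of 0.93 ± 0.039 (SE, edgeR adjusted p = 1.44e-20), and clones 1.1, 2.2, 3.5 and 3.6 had means of 136, 137, 110.44 and 100.01 CPM. DSG2, with the WT and clone 3.2 values above, had means of 18.6, 31.3, 25.8 and 19.4 CPM in those clones. CDH13 was at 14.5, 16.4 and 16.2 CPM in WT and 4.47, 3.46 and 3.66 CPM in clone 3.2, a log2 fold change of -2.03 ± 0.11 (SE, edgeR adjusted p = 4e-17), and at 19.7, 16.9, 12.8 and 7.99 CPM in the other clones. The other clones' means for DSG2 thus lay close to or above WT, and for CDH6 on both sides of it. SDC2 (syndecan 2), a heparan sulphate proteoglycan, was at 6.202, 5.45 and 6.58 CPM in WT and 2.099, 2.97 and 2.65 CPM in clone 3.2, a log2 fold change of -1.22 ± 0.16 (SE, edgeR adjusted p = 3.85e-08), while the other clones were all above WT, at 35.1, 13.4, 25.8 and 19.4 CPM. FGF13 showed the same order, with 11.98, 10.4 and 10.8 CPM in WT, 3.65, 5.304 and 4.05 CPM in clone 3.2 and 17.4, 34.4, 38.3 and 16.8 CPM in the other clones. The atypical cadherin DCHS2 was lower in clone 3.2 as well, with a log2 fold change against WT of -1.49.

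Regulators of transcription, metabolism and signalling followed. The transcription factor OSR1 was at 14.3, 15.2 and 13.1 CPM in WT and 4.64, 3.37 and 3.52 CPM in clone 3.2, a log2 fold change of -1.89 ± 0.12 (SE, edgeR adjusted p = 1.25e-15), and at 10.3, 11.8, 12.8 and 11.6 CPM in clones 1.1, 2.2, 3.5 and 3.6. PPARG, lowest in clone 3.2, had means of 1.37, 3.44, 0.538 and 4.35 CPM in those clones. ULK2, a kinase that starts autophagy, was at 7.22, 8.15 and 9.18 CPM in WT and 0.939, 1.12 and 1.35 CPM in clone 3.2, a log2 fold change of -2.83 ± 0.19 (SE, edgeR adjusted p = 3.24e-15), against 5.92, 15.2, 2.83 and 1.97 CPM in the other clones. The order of the clones thus differed from gene to gene, with clone 2.2 above WT for ULK2 and every other clone below WT for PPARG. IAH1, an esterase whose exons overlap those of ADAM17, and TPD52 were also lower, with log2 fold changes against WT of -1.81 and -1.23. NACAD was at 0.749, 0.153 and 0.612 CPM in WT and 8.95, 8.49 and 9.02 CPM in clone 3.2, and at most 2.24 CPM on average in any other clone. PLXNA4, a receptor of semaphorins, was at 1.28, 1.68 and 1.89 CPM in WT and 7.84, 6.11 and 6.798 CPM in clone 3.2, a log2 fold change of 2.09 ± 0.21 (SE, edgeR adjusted p = 1.66e-10), and at 1.67, 0.155, 0.616 and 0.4297 CPM in the other clones. LRRC32, which tethers latent TGF-beta to the cell surface, the NADPH oxidase DUOX1 and KANK4 were the other rises, with log2 fold changes against WT from 1.61 to 1.92.

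**Figure D4:**
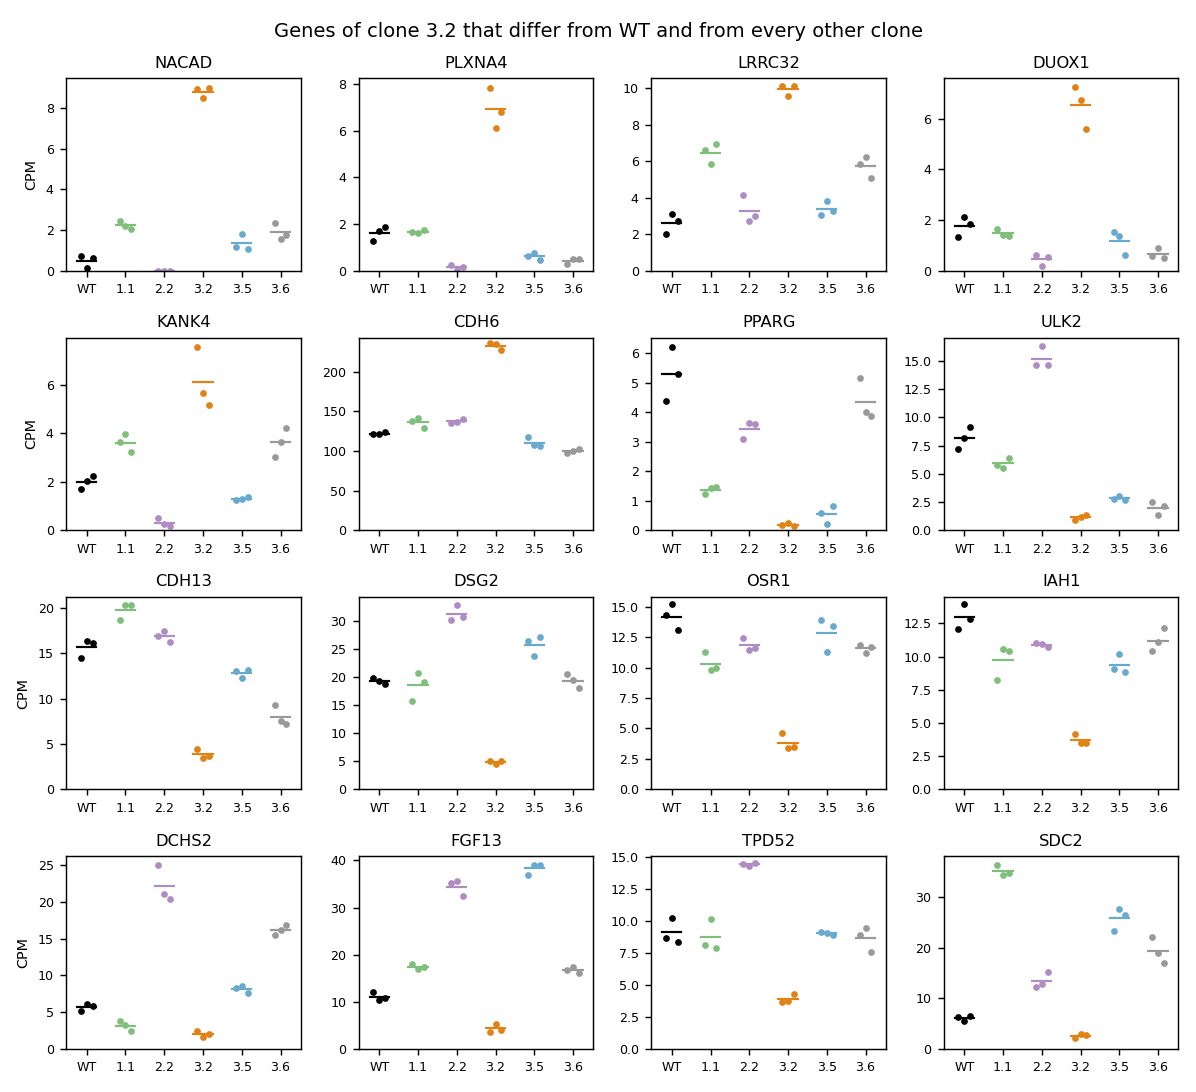
CPM in all 18 MDST8 libraries for the 6 genes higher and the 10 genes lower in clone 3.2 than in WT and each other clone, by the rule for named genes. Points are libraries and lines are means of 3. The orange points of clone 3.2 lie outside the range of the means of all other groups. For PPARG, ULK2 and DCHS2, a single library of another clone lies within the range of the clone 3.2 libraries.

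The changed genes were spread over all chromosomes but not evenly. Chromosome 18 had a median log2 fold change of -0.28 over 202 tested genes with 18.8% called lower, and chromosome 14 a median of -0.24 over 432 genes with 14.8% called lower. Chromosome 5 had 20.2% of 660 genes called higher and a median of 0.11, and chromosome 15 a median of 0.12. Medians of the other 4 clones against the same WT libraries were -0.31 to -0.24 on chromosome 18 and -0.22 to -0.18 on chromosome 14. On chromosome 5 they were 0.11 to 0.16 and on chromosome 15 0.11 to 0.15, so these shifts were shared by all the clones. Among genes described above, FBLN5 and TNFAIP2, both lower, lie on chromosome 14. SERPINB2, CCBE1 and DSG2, all lower, and SLC14A1, which was higher, lie on chromosome 18. Chromosome 4 had a median of 0.02 in clone 3.2 and of -0.39 in clones 2.2 and 3.5. Copy number was not measured, and its part in these medians was not tested.

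**Figure D5:**
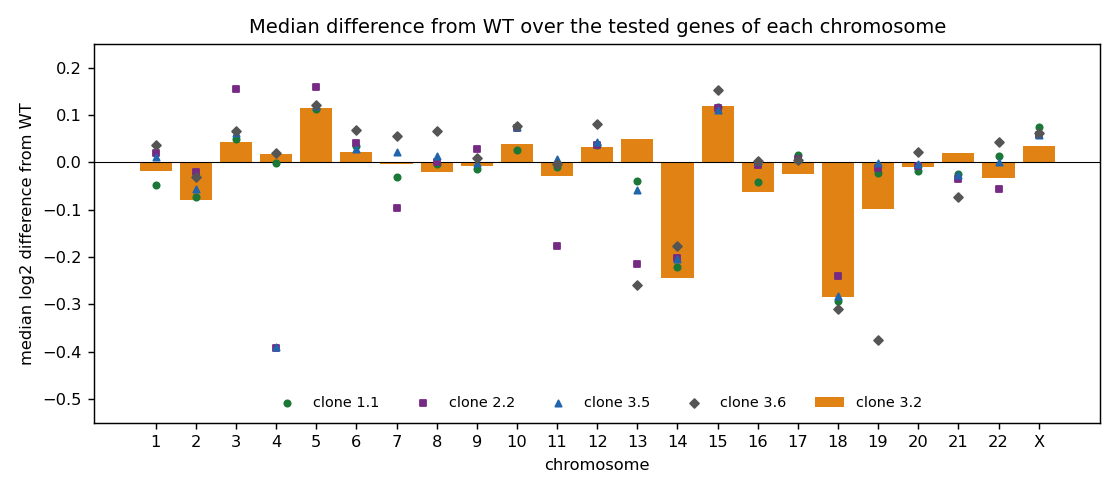
Median log2 difference from WT over the tested genes of each chromosome, as bars for clone 3.2 (from the edgeR fit) and as points for the other 4 clones (from mean CPM + 0.5). Chromosomes 14 and 18 are low in clone 3.2 at -0.24 and -0.28 and in the other clones, while the low points on chromosomes 4 and 19 belong to other clones.

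TWIST1 peaks were listed near most promoters, whether or not the gene changed. The peaks came from 1 ChIP library of MDST8, and 338877 were listed. A peak lay within 3000 bp of the 5′ end for 76.5% of all genes tested, 72.3% of those higher and 74.1% of those lower in clone 3.2. With a q-value of at most 0.05, which left 1075 peaks, these shares were 0.642, 0.335 and 0.479%. The shares of changed genes were thus not above that of all genes. TWIST1 recognises E-boxes, CANNTG, with CATCTG and its reverse complement CAGATG as a well-known form. Within 50 bases of the summit of the promoter peak with the smallest p, read on both strands, CANNTG was found in 38.4% of windows over all genes tested, 39.2% for genes higher and 39.1% for genes lower. CATCTG or CAGATG, which are also CANNTG matches, was found in 599 of 10479 windows over all genes tested, 74 of 1078 for genes higher and 37 of 619 for genes lower. A match is a description of the letters and not evidence of binding.

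The bases within 50 of the summit are shown for the called genes whose promoter peak had the smallest p, and for SPON2, on the plus strand of hg38 with every CANNTG in capitals, to let the E-boxes be seen beside the changes in level.
NID2: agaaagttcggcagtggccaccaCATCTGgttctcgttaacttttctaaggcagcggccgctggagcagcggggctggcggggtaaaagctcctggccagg
CHRNA1: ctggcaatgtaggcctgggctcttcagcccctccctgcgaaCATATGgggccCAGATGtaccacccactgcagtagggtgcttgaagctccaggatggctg
PMEL: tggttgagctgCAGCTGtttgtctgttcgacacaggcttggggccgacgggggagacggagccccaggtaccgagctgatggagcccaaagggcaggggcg
SERPINI1: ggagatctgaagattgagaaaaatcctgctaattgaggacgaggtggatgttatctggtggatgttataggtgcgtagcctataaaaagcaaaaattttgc
SPON2: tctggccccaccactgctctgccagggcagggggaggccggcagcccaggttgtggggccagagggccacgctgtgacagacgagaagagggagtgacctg
The windows are chr14:52069177-52069277 for NID2, chr2:174787980-174788080 for CHRNA1, chr12:55974073-55974173 for PMEL, chr3:167736066-167736166 for SERPINI1 and chr4:1206383-1206483 for SPON2.

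NID2 (nidogen 2), a basement membrane protein, has its summit 168 bases upstream of the 5′ end, with a fold enrichment of 7.78 and a -log10 p of 13.8, and 1 CATCTG in the window. Its level was 2.57, 1.68 and 3.31 CPM in WT and 1.33, 1.08 and 1.59 CPM in clone 3.2, a log2 fold change of -0.92 ± 0.29 (SE, edgeR adjusted p = 0.00712). The libraries stood close together, the lowest of WT just above the highest of clone 3.2, and the call was lost without WT replicate C, with an edgeR adjusted p of 0.0824. CHRNA1, a subunit of the muscle acetylcholine receptor, has its summit 95 bases upstream, with a fold enrichment of 5.27, and a CATATG and a CAGATG that are 5 bases apart. A pair of CANNTG at this spacing was found in 22 of the 10479 windows over all genes tested, 6 of 1078 for genes higher and 0 of 619 for genes lower. CHRNA1 was at 0.642, 1.12 and 0.918 CPM in WT and 1.55, 2.25 and 1.59 CPM in clone 3.2, a log2 fold change of 1.01 ± 0.28 (SE, edgeR adjusted p = 0.00249). PMEL, a melanosome protein with a CAGCTG in the window, was at 0.962, 0.408 and 0.969 CPM in WT and 1.88, 1.53 and 1.83 CPM in clone 3.2, a log2 fold change of 1.16 ± 0.30 (SE, edgeR adjusted p = 0.00117). SERPINI1 (neuroserpin), with no CANNTG in the window, rose from 1.28, 0.764 and 0.51 CPM to 3.203, 4.899 and 4.92 CPM, a log2 fold change of 2.36 ± 0.27 (SE, edgeR adjusted p = 2.93e-09). The peak at SPON2 has its summit 2529 bases inside the gene, counted from the outermost annotated 5′ end. Its fold enrichment is 3.2 and its -log10 q 0.26, and its window holds no CANNTG. Only this window was searched. The paper reports a conserved CATCTG upstream of the SPON2 start site, with TWIST1 bound there by ChIP-qPCR. It also reports that TWIST1 activated a mouse Spon2 promoter reporter. The paper's site was not examined here. All 5 genes had under 10 CPM in every library, so their levels rest on few counts. Also by the rule, ENSG00000281181 and ENSG00000280614, lncRNAs among the ribosomal DNA repeats of chromosome 21, were lower in clone 3.2. ENSG00000281181 was at 102, 108 and 70.1 CPM in WT and 35.3, 26.6 and 23 CPM in clone 3.2, and ENSG00000280614 at 4.44, 9.02 and 8.97 CPM and 2.38, 1.08 and 1.45 CPM, with log2 fold changes of -1.73 and -2.22. Their copies are near-identical, their peaks had fold enrichments of 1.79 and 1.8, and their sequence is not shown.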

How the data were processed

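RNA-seq counts of 18 MDST8 libraries were used, 6 of them for the main comparison. As deposited, the raw counts per gene had been made by the authors with Trim Galore 0.6.6, HISAT2 2.1.0 on hg38, SAMtools 1.6 and featureCounts 2.0.0 on GENCODE v43 gene models, per the file headers on fragments and with no strand option although the libraries were directional. Reads shared by overlapping antisense genes therefore cannot be told apart. TWIST1 ChIP-seq peaks had been called by the authors with Bowtie2 2.4.5 and MACS2 2.2.7.1 on 1 ChIP library, and the deposited list gives each peak a score, a fold enrichment over background, and −log10 p and q values, where the labels list hg38 and the last peak of 24 of 24 chromosomes ended inside the hg38 lengths. The deposited gene lengths in base pairs were not used for tests.

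Genes whose counts per library size (RPM) had a geometric mean of RPM + 1, less 1, of at least 1 over the 18 libraries were tested, 13706 of 62703. edgeR 4.0.16 (R 4.3.3) was used with TMM factors and its quasi-likelihood test, all 18 libraries in 1 fit without covariates, and p-values were adjusted by Benjamini-Hochberg over all genes tested. The threshold for a call was 0.58 on the log2 scale in either direction together with 0.05 for the adjusted p. The standard error is the log2 fold change divided by the square root of F. Script steps were tested on simulated data. Single genes were also compared by exact permutation tests.

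Named genes were the 15 called protein-coding genes with the largest rise and the 15 with the largest fall. These had at least 5 CPM in the higher group and no overlap with WT. Up to 4 called members per direction of each gene list were added. Up to 10 genes per direction apart from WT and every other clone followed under the same rule, with overlap checked against WT only. TWIST1, SPON2 and the 6 called genes with the smallest p of a promoter peak completed the named genes. These 6 were taken from the numbered chromosomes and X, with chromosome 8 left out. Members, gene lists and tests were chosen with earlier results of these data known. Names without values are further called list members. The replicate letters did not pair samples, since correlations of same-letter deviations were -0.030, -0.052 and -0.11, so no pairing was used. Alternatives were other scalings (RLE, upper quartile), DESeq2 1.42.0, limma 3.58.1 on log2(count + 1), on log2(RPM + 1) and with voom, other filters, the 6 libraries alone, a replicate block, and leaving out each library. The LoVo data are not used here, and a few genes and 1 gene list are not reported here.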

Additional observations from a re-analysis of the deposited data

Results flagged for a closer look

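Clone 3.2 differed from the other knockout clones when tested against them directly, with edgeR's quasi-likelihood test in the same fit. It differed from clone 1.1 in 447 genes, from clone 2.2 in 1833, from clone 3.5 in 1208 and from clone 3.6 in 1224. In all 4 comparisons as well as against WT, 11 genes were higher and 29 lower. All comparisons share the clone 3.2 libraries.

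For the genes named among these, the smallest log2 difference between clone 3.2 and another clone was as follows. Among genes higher in clone 3.2 it was 1.97 for NACAD, 2.05 for PLXNA4, 0.62 for LRRC32, 2.14 for DUOX1, 0.75 for KANK4 and 0.76 for CDH6. Among genes lower in clone 3.2 it was -1.55 for PPARG, -0.79 for ULK2, -1.06 for CDH13, -1.91 for DSG2 and -1.44 for OSR1. It was -1.35 for IAH1, -0.64 for DCHS2, -1.94 for FGF13, -1.15 for TPD52 and -2.36 for SDC2. The differences of LRRC32, DCHS2, KANK4, CDH6 and ULK2 from the nearest clone were thus little above the threshold of 0.58, while those of SDC2, DUOX1 and PLXNA4 were beyond 2.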

How the results depend on the processing

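Of 207 named genes 206 were called, and none of their log2 fold changes turned its direction under any alternative. Of 3312 values under the alternatives, 44, from 20 genes, were no longer past the threshold, and 14 genes lost a call without some single library. With the letters A, B and C as a replicate block, 1492 genes were higher and 834 lower, and no named gene's call changed, and the letters do not pair the samples. Leaving out each library in turn gave 1456 to 1553 genes higher and 765 to 842 lower. With limma on log2(count + 1), 154 genes were lower in clone 3.2 than in clone 1.1, and 945 were higher and 342 lower than in clone 3.5. With limma on log2(RPM + 1), 372 were lower than in clone 3.5 and 338 higher than in clone 3.6. With no filter on low counts 324 were higher than in clone 1.1, and 31 were higher than in WT and each other clone, against 28 with filterByExpr. The cause of these shifts was not tested.

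The share of genes with a promoter peak, over all genes tested, those higher and those lower, was 53.4, 47.0 and 49.6% within 1000 bp and 86.3, 83.2 and 84.2% within 5000 bp. It was 28.25, 25.2 and 26.2% for peaks with p of at most 0.001, and 0.642, 0.335 and 0.479% with q of at most 0.05. The lowest window median was -0.55 over 25 genes and -0.32 over 100, and the highest 0.79 and 0.46. Without filtering, 1912 genes were higher and 1160 lower. List counts moved by over 1.5 times in 41 of 1056 values. Genes with a few counts per library limit the depth: changes of low genes such as ATP6V0D2, PPARG, WNT6 and NID2 are known only roughly.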

Other observations

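The hypoxia, detoxification, HOX and mitochondrial genes were described by the same tests. Over all genes tested, 10.9% were higher and 6.09% lower. Of 32 hypoxia and glycolysis genes, 3 were higher (9.4%) and 4 lower (12.5%), with a median of -0.19. HK2 (hexokinase 2) was at 45.6, 44.7 and 46.6 CPM in WT and 18.2, 19.5 and 20.97 CPM in clone 3.2, a log2 fold change of -1.22 ± 0.064 (SE, edgeR adjusted p = 8.04e-18), and ANGPTL4, VEGFA and HIF1A were also lower. ADM, PFKFB4 and the lactate exporter SLC16A3, whose exons overlap those of CSNK1D, were higher.

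Of 29 detoxification and DNA repair genes, 2 were higher (6.9%) and 5 lower (17.2%), with a median of -0.13. The drug efflux pump ABCC3 was at 2.73, 1.32 and 2.498 CPM in WT and 7.24, 7.42 and 6.03 CPM in clone 3.2, a log2 fold change of 1.66 ± 0.21 (SE, edgeR adjusted p = 2.77e-08), while the pump ABCG2 was at 5.29, 5.603 and 4.13 CPM and 2.98, 1.84 and 1.74 CPM, a log2 fold change of -1.21 ± 0.20 (SE, edgeR adjusted p = 4.46e-06). The NRF2 targets HMOX1, SRXN1 and GCLM fell with log2 fold changes of -1.32, -0.82 and -0.79. Of 23 HOX genes, HOXB3, HOXB4 and HOXB5 were higher and HOXD3 and HOXD4 lower, with log2 fold changes from -0.89 to 0.84, and HOXD3 was not called without WT replicate C (-0.52). Of 21 mitochondrially encoded genes, 3 were higher (14.3%), MT-CYB among them with a log2 fold change of 0.73, and 0 lower. Without WT replicate C or without clone 3.2 replicate C, 6 were higher.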
